A study of Mus musculus with 5 samples.

Results

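The genes described here encode the TREX complex and its REF/Aly export adaptors, and the data ask whether their mRNAs are among the brain RNAs that bound to an export adaptor of the same family, MA-Brent-1. The members are Alyref, Thoc1, Thoc2, Thoc3, Thoc5, Thoc6, Thoc7, Ddx39b, Chtop and Poldip3, and every probe set of the array annotated to 1 of these symbols alone was taken. This gave 28 probe sets for 10 genes, out of 45037 probe sets that are not controls and 18193 genes with a symbol of their own. A further probe set is annotated to both Alyref2 and Alyref and was not used for either. A filter on low signal, set at the 40th percentile of the average log2 signal of all probe sets, was passed by 24 of the 28, with at least 1 for each gene.

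TREX, short for transcription and export, is loaded onto mRNA while it is transcribed, spliced and capped, and it prepares the mRNA for passage through the nuclear pore. Its THO part, made of the Thoc proteins, brings the RNA helicase Ddx39b to the transcript. The helicase places adaptors such as Alyref, Chtop and Poldip3 on the RNA, and these hand it to the export receptor formed by Nxf1 and Nxt1. REF/Aly adaptors contact RNA through arginine-rich stretches beside their RNA recognition motif. Deimination, also called citrullination, turns the arginines of a protein into citrulline and removes their positive charge.

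The samples were mouse brain RNA on 5 Affymetrix expression arrays. On 2 arrays the RNA had been eluted from deiminated MA-Brent-1 after binding in vitro, and on 2 it had been eluted from the non-deiminated protein. The remaining array held, by its description, the starting RNA that had gone through no binding, called input here. Its title calls it a null RNA control instead. In each bound group 1 title names MA-Brent-1 and 1 names REFP2, while the descriptions give MA-Brent-1 for all 4 bound arrays. Whether the names stand for the same protein is not stated, so the arrays of a group may differ in it and the spread within a group may include such a difference. A single title speaks of a biological repeat, and no label seen here gives the source of the protein or the strain and age of the mice. The replicate numbers used below are names only and tie no array to another. All p-values therefore measure only the spread between bound arrays of the same group, which may be technical, pooled in part over all probe sets. No spread of the input was measured, and comparisons with it assume that it varied like the bound arrays. Values are MAS5 signals, Affymetrix's summary of the probes of a probe set, and log2 differences were taken after adding a pseudocount of 4.18 to each signal, which understates the change of dim probe sets.

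The input array stood apart from the bound arrays, and every comparison with it rests on that single array. Its median signal was 102, against 29.9 to 41.5 on the bound arrays, although all 5 arrays had been scaled to the same trimmed mean of 150. The bacterial and phage hybridisation controls averaged 17.04 log2 in the input and 10.09 to 13.04 log2 on the bound arrays. Among 3369 genes with exactly 2 probe sets past the filter, the correlation across genes between those probe sets was 0.567 to 0.606 on the bound arrays and 0.0869 in the input (a description over genes, which are not independent). Each pair was ordered from dimmer to brighter by its average over all 5 arrays, 4 of them bound. That ordering by itself favours a higher correlation on the bound arrays, so the size of the gap cannot be read as a difference between arrays. The 8 neuronal markers, of which Snap25 and Tubb3 differed most, summed to a signal of 14939 to 17695 on the bound arrays, against 4194 in the input. In limma 6 of the 8 were higher in bound RNA at an adjusted p under 0.05, and 0 were lower. The 5 astrocyte markers summed to 15934 to 20686 on the bound arrays and 5976 in the input, with 3 called higher and 0 lower. For the 4 oligodendrocyte markers with a probe set the input sum of 48644 lay within the bound range of 22671 to 67776. Most of that sum was Mbp and Cnp, at 31935 and 16094 in the input, and neither was called. The other 2, Mog and Mobp, were called higher in bound RNA, by 2.66 and 3.22 log2. The 3 liver markers with a probe set summed to 63.7 to 137 on the bound arrays, against 752 in the input. For the 4 skeletal muscle markers the sums were 42.9 to 74.6 and 428. For 2 red blood cell markers they were 91.2 to 155 and 351, though 1 of them, Alas2, was called higher in bound RNA. The microglia and endothelium sums were lower in the input than on every bound array. The lower quartile of all signals was 24.2 in the input and 8.06 to 11.4 on the bound arrays. The part of any of these array differences in the results below was not tested.

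In bound RNA relative to input, the probe sets called higher belonged to Thoc2, Thoc3, Thoc7, Ddx39b, Chtop and Poldip3, while the adaptor Alyref, Thoc5 and Thoc6 had no call. The largest differences were on probe sets of Thoc2, Poldip3, Chtop and Ddx39b, at about 4 log2 units each. Limma called 9 of the 24 probe sets higher at an adjusted p under 0.05, where 26.8% of all 27022 probe sets past the filter were called higher. It called 4 lower, where the background was 29.8%. With the brightest probe set for each gene, 3 of the 10 genes were called higher (background 31.6%) and 1 lower (background 24.8%). The median log2 difference was 0.86 over the 24 probe sets and -0.20 over all probe sets past the filter. With no filter, 9 of all 28 were called higher (background 15.6%) and 6 lower (background 36.2%), and the median was 0.47 against -0.92 over all 45037. None of the 9 rises was called after scaling the linear signals to the hybridisation controls before log2, a setting chosen after seeing the data, in which limma called 89 of all probe sets. The filter counts the input array, so these counts describe the members and test nothing about them as a group. Since each array was scaled to a common level, a higher signal is relative to the other signals of that array and does not show a larger amount of RNA. Whether signals on the input array followed the share of each RNA was not tested.

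**Figure D1:**
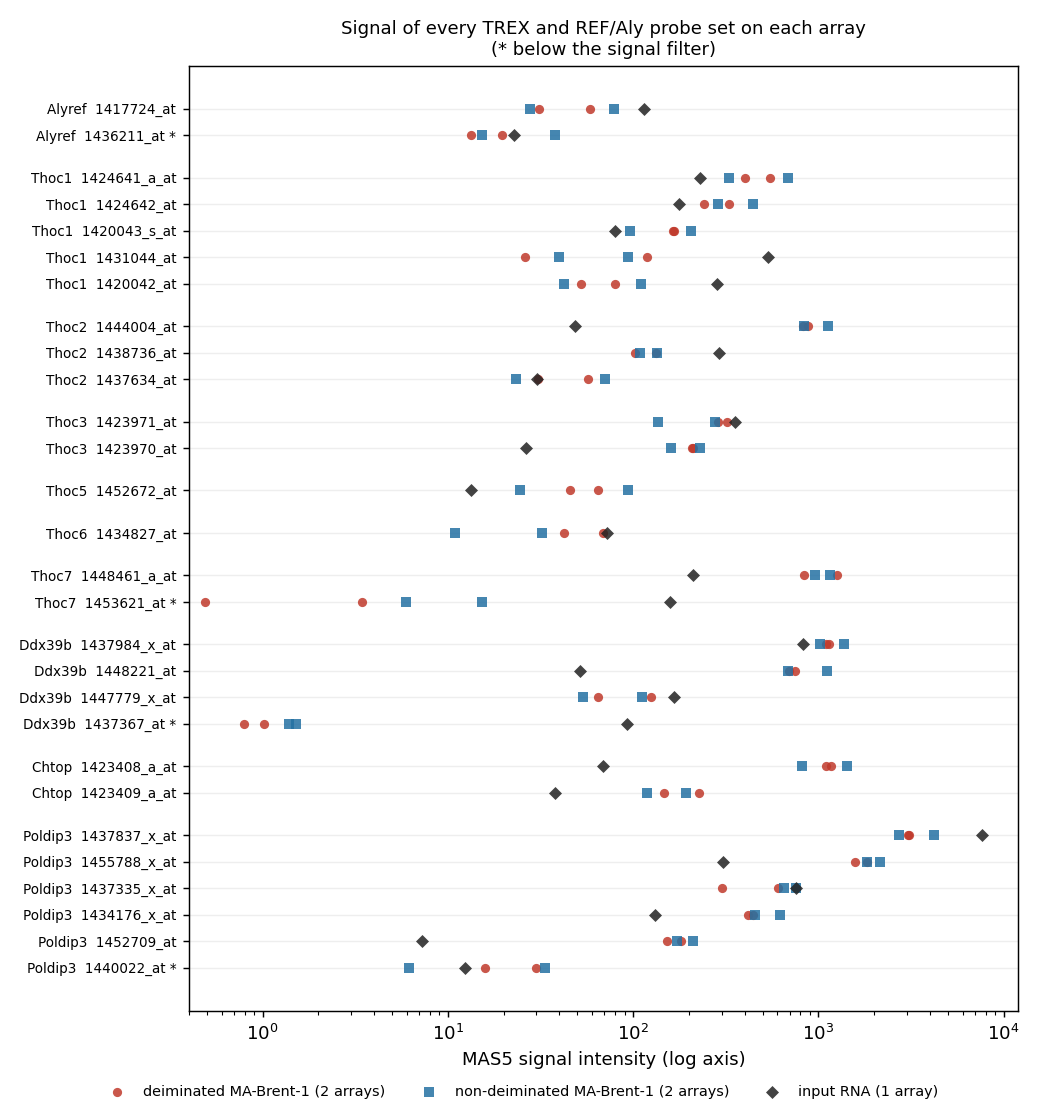
MAS5 signal of the 28 probe sets (rows, grouped by gene) on each of the 5 arrays, on a log axis; circles are deiminated, squares non-deiminated and diamonds input arrays, and * marks the 4 probe sets below the signal filter. The deiminated and non-deiminated symbols intermix in most rows, while the input diamond lies outside them in 25 of the 28 rows, to the left in 14 and to the right in 11.

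The adaptor Alyref, the mammalian founder of the REF/Aly family, was measured by 2 probe sets. Its brighter one, 1417724_at, read 30.9 and 58.3 with deiminated protein, 27.8 and 78.7 with non-deiminated protein and 115 in the input. All 4 bound values were below the input, and the values of the bound groups overlapped. The difference of bound from input was -1.28 ± 0.70 log2 (standard error, 95% interval -2.79 to 0.24, adjusted p = 0.134), so Alyref RNA was not shown to differ, and its sign turned to 0.18 after centring each array on its median and to 0.21 after quantile normalisation. Without non-deiminated replicate 2 the difference was -1.62 and passed at an adjusted p = 0.0323. Both higher readings came from the arrays with the higher hybridisation controls of their group, deiminated replicate 2 and non-deiminated replicate 2, at a log2 difference of 1.10 between higher-control and lower-control arrays, and the part of this in the result was not tested. Over the 24 members past the filter the median of that difference was -0.10, and over all probe sets past the filter 0.09. Among the 24 it ran from -1.13 for Thoc2 on 1437634_at to 1.59 for Thoc1 on 1431044_at. The other probe set, 1436211_at, lay below the filter, reading 19.5 and 13.4 with deiminated protein, 15.3 and 37.9 with non-deiminated protein and 22.7 in the input.

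Chtop, an arginine-rich adaptor that binds Ddx39b and Nxf1, was the member whose probe sets were all called in the same direction. Its probe set 1423408_a_at read 1174 and 1101 with deiminated protein, 1435 and 813 with non-deiminated protein and 68.8 in the input. The lowest bound value was far above the input, and non-deiminated arrays held both the highest and the lowest bound value. Chtop rose by 3.93 ± 0.38 log2 in bound RNA (3.11 to 4.74, adjusted p = 5.61e-06), which is 15.2-fold on the log2 scale with the pseudocount. Its second probe set, 1423409_a_at, read 146 and 228 with deiminated protein, 192 and 118 with non-deiminated protein and 38.1 in the input. It rose by 2.01 ± 0.48 log2 (adjusted p = 0.00435). Both probe sets end in _a_at, which on this array design marks probes shared by transcript variants of the same gene.

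Poldip3, also known as SKAR, an adaptor with a REF-like RNA recognition motif that ties export to the S6 kinase pathway, had 6 probe sets that did not move alike. The probe set 1452709_at read 182 and 153 with deiminated protein, 210 and 173 with non-deiminated protein and 7.24 in the input. It rose by 4.0 ± 0.48 log2 (2.96 to 5.03, adjusted p = 3.51e-05), but its input signal lay near the pseudocount of 4.18, and the difference was 4.43 with a smaller and 3.02 with a larger pseudocount. The probe set 1455788_x_at rose by 2.58 ± 0.35, reading 1825 and 1577 with deiminated protein, 2150 and 1835 with non-deiminated protein and 304 in the input. The probe set 1434176_x_at rose by 1.83 ± 0.36, with 418 to 624 on the bound arrays and 132 in the input, and was no longer called after cyclic loess (0.84, adjusted p = 0.0694). Against these, 1437837_x_at had 3066 and 3096 with deiminated protein, 2735 and 4201 with non-deiminated protein and 7690.0 in the input. It was called lower at -1.25 ± 0.42 (adjusted p = 0.0235), but not without deiminated replicate 1 (adjusted p = 0.118) or deiminated replicate 2 (adjusted p = 0.114), and its sign turned to 0.21 after median centring. The probe set 1437335_x_at had -0.47 ± 0.40 and was not called, but 2 alternatives called it lower, cyclic loess at -1.72 (adjusted p = 0.00677) and quantile normalisation at -1.48 (adjusted p = 0.00463). The last, 1440022_at, lay below the filter at 6.17 to 33.4 on the bound arrays and 12.3 in the input. The suffix _x_at marks probe sets with probes that can match other sequences, and 4 of the 6 Poldip3 probe sets carry it.

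The helicase Ddx39b, also known as UAP56, unwinds RNA with ATP and loads the adaptors, and its 4 probe sets disagreed. The probe set 1448221_at read 748 and 692 with deiminated protein, 1112 and 689 with non-deiminated protein and 51.4 in the input. It rose by 3.84 ± 0.37 log2 (3.04 to 4.64, adjusted p = 5.66e-06). The brightest one, 1437984_x_at, read 1103 and 1137 with deiminated protein, 1375 and 1016 with non-deiminated protein and 821 in the input. All 4 bound values were above the input, yet the difference of 0.48 ± 0.35 was not called, and its direction depended on the scaling, at -0.91 after cyclic loess (adjusted p = 0.0413) and 1.94 after median centring (adjusted p = 0.00558). The probe set 1447779_x_at read 53.4 to 125 on the bound arrays and 166 in the input, a difference of -0.96 ± 0.57 that was not called, and that passed at -1.21 (adjusted p = 0.0438) without non-deiminated replicate 2. The last, 1437367_at, lay below the filter, reading 0.79 and 1.02 with deiminated protein, 1.51 and 1.39 with non-deiminated protein and 92.8 in the input. Its unfiltered difference was -4.18 ± 0.56 (adjusted p = 0.00015), and all of its bound signals were under the pseudocount, so the size depends on it. Past the filter, the span between the lowest and the highest difference was 4.80 log2 units for Ddx39b, against 5.38 for Thoc2, 5.25 for Poldip3, 4.13 for Thoc1, 3.28 for Thoc3 and 1.92 for Chtop. With the probe sets below the filter it reached 8.02 for Ddx39b and 6.43 for Thoc7.

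**Figure D2:**
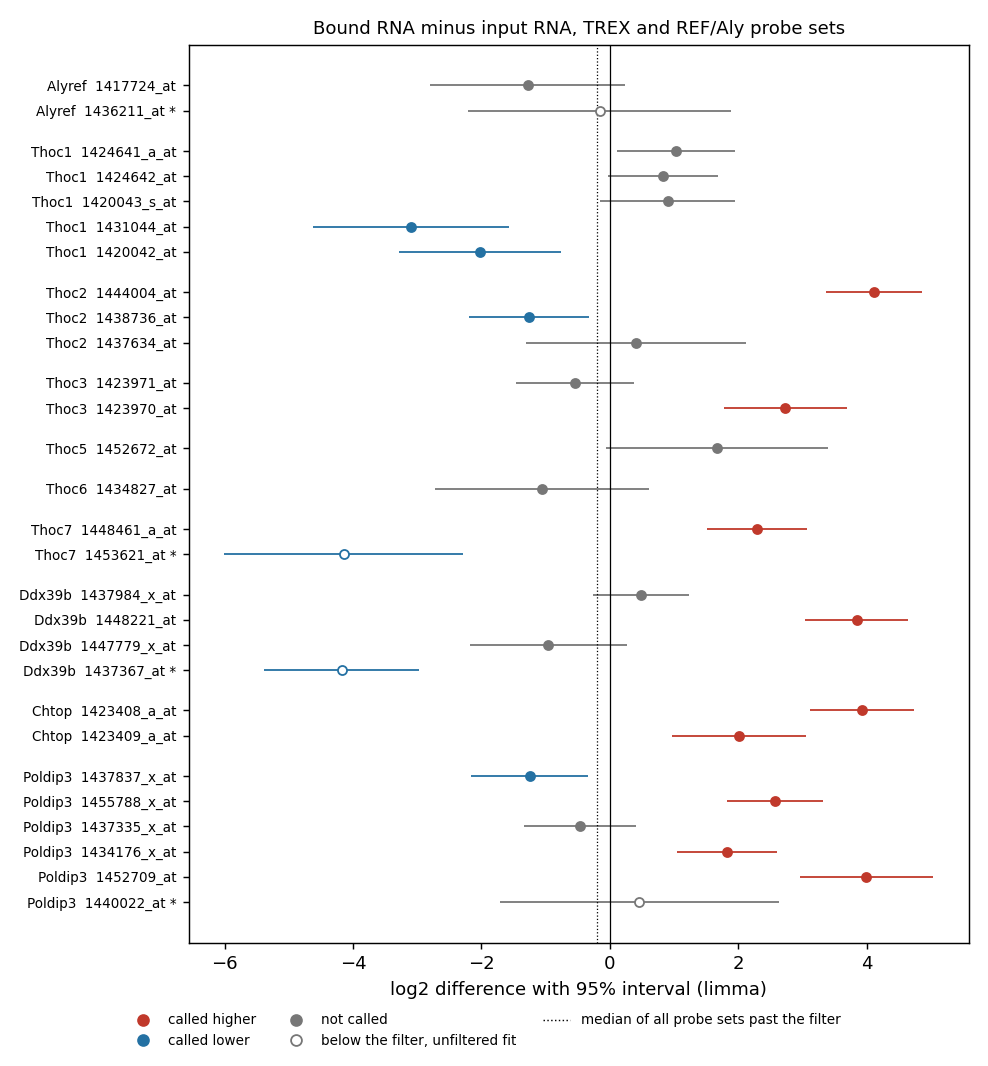
Log2 difference of bound RNA from input RNA for the 28 probe sets, with 95% intervals from limma; red was called higher, blue lower and grey not called, and open circles are probe sets below the filter, taken from the fit with no filter. The dotted line is the median of all probe sets past the filter (-0.20), and the probe sets of each gene with more than 1, except Chtop, fall on both sides of it.

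In the THO part, Thoc2, the large scaffold subunit, had probe sets called in both directions. Its probe set 1444004_at read 827 and 875 with deiminated protein, 838 and 1123 with non-deiminated protein and 48.5 in the input. It rose by 4.12 ± 0.35 log2 (3.37 to 4.87, adjusted p = 2.04e-06), 17.3-fold, with 2.93 after cyclic loess, and the highest of the 4 bound values was 1.36 times the lowest. A second probe set, 1438736_at, went the other way, reading 133 and 103 with deiminated protein, 109 and 134 with non-deiminated protein and 292 in the input. It was called lower at -1.27 ± 0.43 (adjusted p = 0.0248), but not without deiminated replicate 2 (-1.18, adjusted p = 0.0714), and it turned to 0.19 after median centring. The third, 1437634_at, read 23.2 to 70.8 on the bound arrays, around the input value of 30.3.

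Thoc1, the subunit that gives THO its core together with Thoc2, had 5 probe sets, and all of them passed the filter. Its brightest one, 1424641_a_at, read 551 and 402 with deiminated protein, 329 and 682 with non-deiminated protein and 229 in the input. All bound values exceeded the input, but the difference of 1.03 ± 0.42 log2 just missed the threshold (0.12 to 1.94, adjusted p = 0.0521). It passed under 6 of 15 alternatives, among them without deiminated replicate 2 (1.14, adjusted p = 0.036) or non-deiminated replicate 1 (1.29, adjusted p = 0.00239), and it was -0.03 after cyclic loess. The probe sets 1424642_at and 1420043_s_at had 0.83 ± 0.39 and 0.90 ± 0.49, also with every bound array above the input, and were not called, though they passed under 3 and 4 of the 15 alternatives, both of them without non-deiminated replicate 1, at 0.99 and 1.17. The remaining probe sets were called lower. The first of them, 1431044_at, read 26.1 and 119 with deiminated protein, 39.8 and 93.9 with non-deiminated protein and 538 in the input, and had -3.10 ± 0.71 (adjusted p = 0.00328). The other, 1420042_at, read 42.3 to 110 on the bound arrays and 283 in the input, and had -2.02 ± 0.58 (adjusted p = 0.0113). After median centring they had -1.64 and -0.56 and neither was called, and scaling to the hybridisation controls turned them to 2.36 and 3.43.

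Thoc3, a WD40-repeat subunit, rose by 2.73 ± 0.44 log2 on its probe set 1423970_at (1.78 to 3.69, adjusted p = 0.000342). The values were 207 and 211 with deiminated protein, 161 and 230 with non-deiminated protein and 26.6 in the input, so the lowest bound value was well above the input. The other Thoc3 probe set, 1423971_at, read 321 and 288 with deiminated protein, 278 and 136 with non-deiminated protein and 356 in the input. Its difference of -0.54 ± 0.43 was not called, was 0.91 after median centring, and passed at -1.25 after cyclic loess (adjusted p = 0.0342).

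Thoc7, a coiled-coil subunit that pairs with Thoc5, rose by 2.29 ± 0.36 log2 on 1448461_a_at (1.51 to 3.06, adjusted p = 0.000282). This probe set read 1264 and 840 with deiminated protein, 961 and 1156 with non-deiminated protein and 210 in the input. Its second probe set, 1453621_at, lay below the filter, reading 3.42 and 0.49 with deiminated protein, 5.97 and 15.3 with non-deiminated protein and 158 in the input. The unfiltered difference there was -4.15 ± 0.85 (adjusted p = 0.00242), with bound signals near or under the pseudocount on 3 of the 4 arrays.

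Thoc5, the partner of Thoc7, had 1 probe set, 1452672_at, which read 64.9 and 45.9 with deiminated protein, 94.0 and 24.5 with non-deiminated protein and 13.4 in the input. All bound values were above the input, and the difference of 1.67 ± 0.80 (-0.06 to 3.40, adjusted p = 0.0902) was not called. It passed without non-deiminated replicate 2 (2.11, adjusted p = 0.00783) and after quantile normalisation, cyclic loess or median centring, at 2.82, 2.97 and 3.13, and at 7.12 after scaling log2 signals to the hybridisation controls. Thoc6, another WD40-repeat subunit, was measured by 1434827_at, reading 42.6 and 68.6 with deiminated protein, 32.2 and 10.9 with non-deiminated protein and 72.5 in the input. Its difference of -1.05 ± 0.77 was not called, and its sign turned under each scaling tried, with 0.30 to 0.40 after cyclic loess, quantile normalisation and median centring.

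Past the filter, probe sets of the same gene gave opposite calls for 2 members, and 6 genes are too few to set this apart from the background. Of the 6 members with at least 2 probe sets past the filter, 2 (Thoc2 and Poldip3) had a call in each direction, a share of 33.3%, and among all 5643 such genes the share was 23.0%. Averaging the log2 signals of all probe sets of a gene turned the sign for Thoc1 (-0.47), Thoc3 (1.10), Thoc7 (-0.93), Ddx39b (-0.20) and Poldip3 (1.19) relative to the brightest probe set. The count of all 4 bound arrays above the input was 14 of 28 member probe sets (background 25.2%), and the count of all 4 below was 11 (background 54.7%). Past the filter the counts were 14 of 24 above (background 39.1%) and 9 below (background 45.6%). Median centring put the median of all probe sets at 1.25, and scaling to the hybridisation controls put it at 5.25 on the log2 scale and 4.32 before it, so the changes of sign given under these settings carry that shift.

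Setting the deiminated protein against the non-deiminated one addresses whether the modification changed which of these RNAs bound. No member differed detectably between the groups. Limma called 0 of the 24 probe sets, where it called 0% of all 27022, and 0 of the 24 had an unadjusted p under 0.05, where 356 of all (1.32%) did. The median log2 difference was -0.06 over the members and -0.01 over all probe sets, with 9 of 24 positive. The 2 bound groups did not overlap for 5 of the 24 (background 24.1%), and with no filter for 7 of 28 (background 26.3%).

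Thoc6 had the largest difference past the filter, at 1.32 ± 0.69 log2 (-0.17 to 2.81, adjusted p = 0.9999), and both deiminated values of 42.6 and 68.6 exceeded the non-deiminated 32.2 and 10.9. It was 0.68 without non-deiminated replicate 2 and 1.95 without non-deiminated replicate 1. Thoc3 on 1423971_at had 0.64 ± 0.38 (-0.19 to 1.46), again without overlap, and 0.13 and 1.14 without the same arrays in that order. Poldip3 on 1437335_x_at had the lowest difference, -0.71 ± 0.36 (-1.49 to 0.07), reading 608 and 301 with deiminated protein and 754 and 655 with non-deiminated protein. The Poldip3 probe sets 1455788_x_at and 1434176_x_at, at -0.23 and -0.31, also did not overlap. Alyref had -0.14 ± 0.63 (-1.49 to 1.22), and its values on each group's arrays overlapped fully.

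Of the 4 probe sets with the largest rises in bound RNA, Thoc2 on 1444004_at had -0.19 (-0.86 to 0.48), Poldip3 on 1452709_at -0.18 (-1.11 to 0.74), Chtop on 1423408_a_at 0.07 (-0.66 to 0.80) and Ddx39b on 1448221_at -0.28 (-0.996 to 0.43). The interval lay within 2-fold in either direction for 10 of the 24 probe sets and within 4-fold for 23, against 24.2% and 83.9% of all probe sets. Smaller differences were not detectable with 2 arrays a group, and a p that misses the threshold does not show that the groups bound these RNAs alike. With the level of the hybridisation controls as a block, a setting chosen after seeing the data, and with the protein name as a block, the count of called members was 0 as well.

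**Figure D3:**
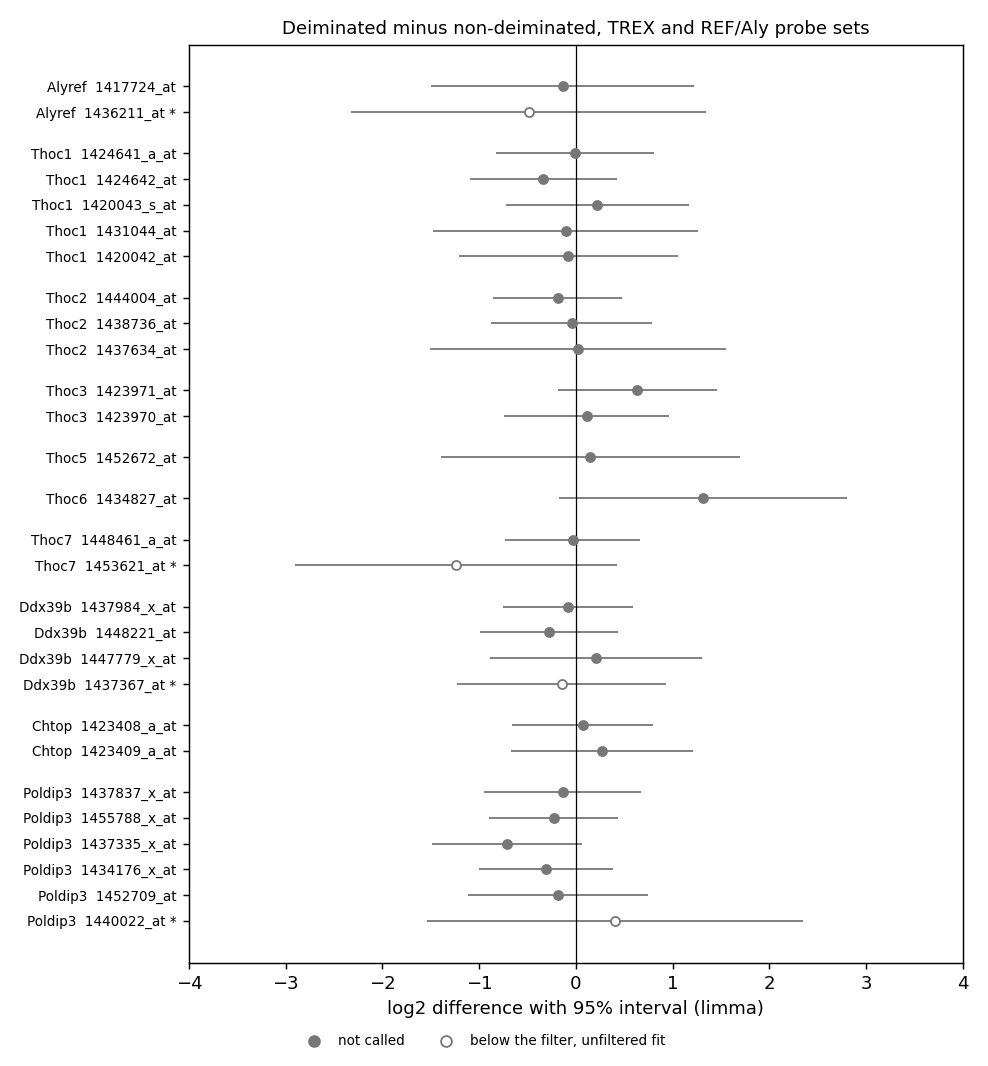
Log2 difference of deiminated from non-deiminated MA-Brent-1 for the 28 probe sets, with 95% intervals from limma; open circles are probe sets below the filter, taken from the fit with no filter. Every interval includes 0, and the differences past the filter run from -0.71 (Poldip3, 1437335_x_at) to 1.32 (Thoc6).

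Each bound group on its own gave like counts against the same input array. For the deiminated arrays 9 member probe sets were called higher (background 24.9%) and 4 lower (background 26.6%), and for the non-deiminated arrays 9 were called higher (background 24.7%) and 4 lower (background 25.7%). The comparisons share the input array, so their likeness is no separate support. Thoc2 on 1444004_at had 4.02 in the deiminated group and 4.21 in the non-deiminated group, Chtop on 1423408_a_at 3.97 and 3.89, Ddx39b on 1448221_at 3.70 and 3.98, and Poldip3 on 1452709_at 3.90 and 4.09 in the same order. Alyref had -1.35 in the deiminated group and -1.21 in the non-deiminated group, and neither passed (adjusted p = 0.155 and 0.199). The called rises were selected as bound above input, so that order follows from the selection. The 2 bound groups were not distinguishable from each other beyond their spread.

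Among the other genes of the export pathway, taken from lists by function with the brightest probe set for each gene, the SR proteins and the TREX-2 genes had the highest medians in bound RNA relative to input. The background for these counts was 31.6% of 13055 genes called higher and 24.8% called lower. Of the SR export adaptors, which bind spliced mRNA and Nxf1, both measured genes rose, Srsf3 by 2.99 ± 0.37 (adjusted p = 4.23e-05) and Srsf1 by 1.88 ± 0.35, although Srsf1 was no longer called after cyclic loess. Srsf3 read 1618 and 1194 with deiminated protein, 1468 and 986 with non-deiminated protein and 160 in the input. Of the 6 genes of TREX-2, the complex that tethers export to the nuclear pore, 4 were called higher and 1 lower, with a median of 1.32. The centrin Cetn2 rose by 3.44 ± 0.34 and the small subunit Sem1 by 2.51 ± 0.37, while Pcid2 had -1.72 ± 0.44 (adjusted p = 0.00571), a call that was lost after median centring and turned after scaling to the hybridisation controls.

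Of the 5 measured genes of the exon junction complex and its partners, which mark spliced mRNA and help to recruit TREX, 2 were called higher and 0 lower. Rbm8a, the core subunit also known as Y14, rose by 2.23 ± 0.35 and Pnn by 3.64 ± 0.69, and Rnps1 had 0.86 ± 0.41 and was not called. Pnn varied widely, reading 183 and 431 with deiminated protein, 165 and 43.5 with non-deiminated protein and 8.68 in the input, near the pseudocount. The single-symbol probe set of Eif4a3, the helicase of this complex, lay below the filter, at 2.05 to 10.1 on the bound arrays and 159 in the input. None of the 4 genes of the nuclear cap-binding complex was called, with Ncbp1 at 1.07 ± 0.52, Ncbp2 at -0.53 ± 0.36 and Srrt at 0.47 ± 0.41. With quantile normalisation 2 of these 4 were called higher and 1 lower, and with median centring 2 were called higher.

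Of the 7 measured TREX partners outside the members, 1 was called higher and 2 lower. Zc3h18, a zinc finger protein that links the cap-binding complex to RNA processing, rose by 4.02 ± 0.55, with an input signal of 8.49 near the pseudocount. Sarnp, also known as CIP29, which binds Ddx39b, had -1.41 ± 0.37, and Nxt1, the small subunit of the export receptor, had -1.20 ± 0.47 (adjusted p = 0.0442). The Nxt1 call was lost under 8 of 15 alternatives, among them without either deiminated array, without a trend, and after quantile normalisation or cyclic loess. After median centring none of the 7 was called lower and 3 were called higher, and after cyclic loess 1 was called higher and 4 lower. The receptor Nxf1 itself had -0.29 ± 0.36 and was not called. Of the 8 genes of 3' end processing and poly(A) binding, 3 were called higher and 1 lower. Nudt21, a subunit of cleavage factor I, rose by 3.32 ± 0.60 and the endonuclease Cpsf3 by 1.72 ± 0.36, though Cpsf3 was not called after cyclic loess. The nuclear poly(A) binding protein gene Pabpn1 read 7881 and 15827 with deiminated protein, 6549 and 12158 with non-deiminated protein and 157050.0 in the input, a difference of -3.98 ± 0.66 (adjusted p = 0.000415) that turned to 1.48 after scaling to the hybridisation controls. None of the higher calls in these lists was made after scaling to the hybridisation controls before log2. In these 6 lists limma called 0 genes between the deiminated and non-deiminated groups.

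**Figure D4:**
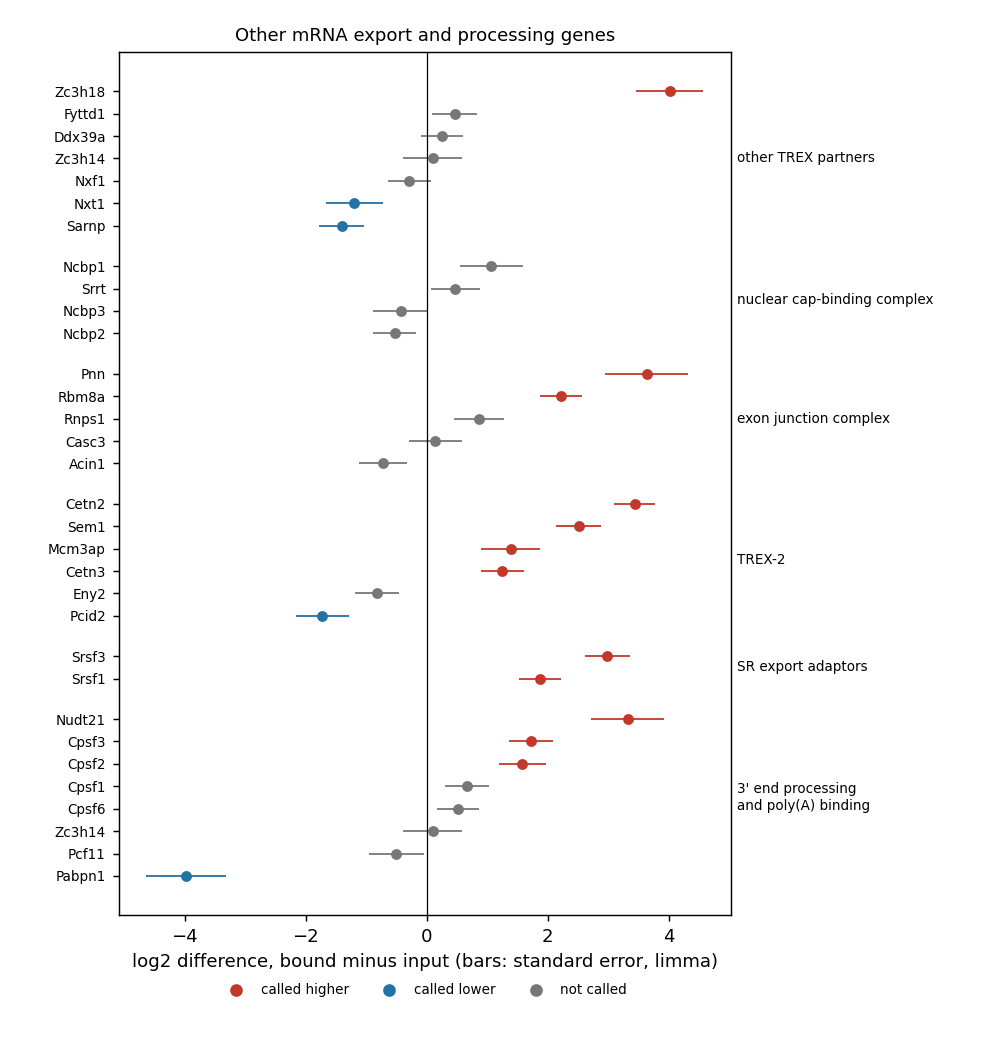
Log2 difference of bound RNA from input RNA for other genes of mRNA export and processing, in 6 lists, with standard errors from limma; red was called higher, blue lower and grey not called. Zc3h18 (4.02) is the highest point and Pabpn1 (-3.98) the lowest, and Zc3h14 stands in 2 lists.

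The genes whose centred log2 signals over the 5 arrays lay nearest to those of Alyref were Aph1a, Med15, Ttc28, Klb and Unc93b1, with root mean square distances of 0.04 to 0.09 log2 among 13054 genes. Aph1a read 349 and 633 with deiminated protein, 304 and 814 with non-deiminated protein and 1243 in the input. Like Alyref, these genes read highest in the input and, within each bound group, higher on the array with the higher hybridisation controls. They were chosen on these same values, so that shared order follows from the selection. The nearest member was Poldip3 with its brightest probe set, at a distance of 0.35 and rank 490, and the farthest was Chtop, at 2.22.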

How the data were processed

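The deposited table gives linear signal intensities per probe set. The submitters' processing notes list MAS5, with no version in the sources used here. On every array the mean after trimming 2% at each end was 150, and no detection calls were used. Computed here were log2 values after adding a pseudocount of 4.18 (the median of all values, 41.8, divided by 10). The filter kept the 27022 of 45037 non-control probe sets whose average log2 value was at or above the 40th percentile. Limma 3.58.1 in R 4.3.3 (lmFit, eBayes with a trend) fitted the means of the 3 groups, with 2 residual and 10.91 prior degrees of freedom. Bound minus input averages both bound groups, and the lone input array takes its spread from the others. P-values were adjusted by Benjamini-Hochberg over all kept probe sets, and an adjusted p under 0.05 is a call. Probe sets below the filter were read from a fit with no filter. Errors after ± are limma standard errors. The number of arrays limits the precision.

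Symbols came from the array annotation: 34945 probe sets had 1 symbol, 932 several and 9160 none, and all 28 member probe sets matched the gene table by Entrez identifier with 0 symbols changed. Where 1 value per gene was needed, as for genes outside the members and in the alternatives, its brightest probe set by average log2 signal was taken. Named were all members, up to 3 genes per list by the size of the moderated t, and the 5 genes nearest to Alyref. Nxf1, Eif4a3 and the cell type markers named above are examples chosen after their values were seen. The members, lists and tests were chosen with earlier results of these data known. The model was tested on simulated data.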

Additional observations from a re-analysis of the deposited data

How the results depend on the processing

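The labels give no replicate numbers that the groups share. With the protein name in the titles as a block, which pairs each deiminated with a non-deiminated array, 0 members were called. The cause of the changes below was not tested. Of bound minus input, 9 member probe sets were called higher, and 14 after median centring (14 also in each bound group alone), and 0 after scaling the linear signals to the hybridisation controls before log2 (0 in each group alone). Of bound minus input, 4 were called lower, against 7 after cyclic loess, 2 without a trend (2 in each group alone), and 0 after median centring or either scaling to the hybridisation controls (0 in each group alone). Leaving out each bound array gave 9 to 12 called higher and 2 to 6 lower in bound minus input, 9 to 11 and 1 to 4 in the deiminated group, and 9 to 12 and 2 to 6 in the non-deiminated group. Without deiminated replicate 2 the lower calls were 2, 1 and 2 in that order, and without deiminated replicate 1 they were 2 in each bound group alone. Over all probe sets the median was -0.20, against 0.49 after quantile normalisation, -0.26 after cyclic loess, 1.25 after median centring, and 5.25 and 4.32 after scaling to the hybridisation controls on the log2 scale and before it. The share of higher calls among all calls was 47.3%, against 88.5% after median centring, 64.3% after quantile normalisation, 30.2% with no filter, 63.1% with the stricter one and 100% under both control scalings.

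With the brightest probe set per gene, signs of bound minus input turned as follows. After quantile normalisation Alyref had 0.21, Thoc6 0.33 and Ddx39b -0.65. After cyclic loess Thoc1 had -0.028, Thoc6 0.30 and Ddx39b -0.91. After median centring Alyref had 0.18, Thoc3 0.91, Thoc6 0.40 and Poldip3 0.21. After scaling log2 signals to the controls Alyref had 4.17, Thoc3 4.91, Thoc6 4.40 and Poldip3 4.20, and when scaled before log2 they had 3.35, 4.61, 3.32 and 4.19. With the mean over probe sets Thoc1 had -0.47, Thoc3 1.10, Thoc7 -0.93, Ddx39b -0.20 and Poldip3 1.19. Of deiminated minus non-deiminated, no member was called under any alternative, and after median centring Thoc1 had 0.068, Thoc7 0.046 and Ddx39b 0.00026. Leaving out each bound array gave -0.82 to 0.55 for Alyref, -0.53 to 0.51 for Thoc1, -0.40 to 0.022 for Thoc2, -0.74 to 1.04 for Thoc5, -0.33 to 0.26 for Thoc7, -0.30 to 0.14 for Ddx39b, -0.33 to 0.48 for Chtop, -0.45 to 0.17 for Poldip3, 0.13 to 1.14 for Thoc3 and 0.68 to 1.95 for Thoc6. Alternatives that leave 1 array in a group assume that it varies like the others.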
